A study of Mus musculus with 42 samples.

Results

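Maternal mRNA storage and decay factors are the 10 genes Zar1, Btg4, Mos, Dazl, Cpeb1, Ybx2, Cnot7, Cnot6l, Dcp1a and Zfp36l2, chosen by name for their known roles, with earlier results of these data known, of 18193 genes with a named probe set. All 10 were on the array, through 20 probe sets, and all 10 were among the 15478 genes that were tested because their mean passed an intensity of 71.15 in at least 1 group. Mos passed that mark through groups of the Nanog experiment only, at 104.9 or less. Expression was measured on 42 Affymetrix arrays of B6D2F1 mouse embryos that were at the 1-cell stage when they were injected. The arrays form 14 groups of 3, which the labels number as biological replicates. At 44 h after injection there were embryos with a morpholino against Oct4, embryos with a morpholino against Sall4, and control-injected and uninjected embryos that both of these experiments shared. At 20 h the Oct4 experiment held Oct4 morpholino and uninjected embryos, and the Sall4 experiment held Sall4 morpholino and uninjected embryos of its own. The Nanog experiment had Nanog morpholino, control-injected and uninjected embryos at both times. A morpholino (MO) is an antisense oligomer that blocks translation or splicing of the mRNA it pairs with, and the control morpholino had no target in the mouse. All embryos, uninjected ones included, were cultured in Human Tubal Fluid with serum supplement, and the labels do not give the number of embryos per array.

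A full-grown mouse oocyte is transcriptionally silent and lives on stored mRNA. Storage proteins coat these transcripts and keep their poly(A) tails short or their translation low, while cytoplasmic polyadenylation later switches chosen mRNAs on. From meiotic maturation onward the CCR4-NOT complex removes poly(A) tails and decapping enzymes open the other end, so that most maternal mRNA is lost around the 2-cell stage as the embryonic genome takes over. In the set, Ybx2 (also called MSY2) and Zar1 are oocyte RNA-binding proteins of mRNA storage. Dazl and Cpeb1 control translation of stored mRNAs, and Mos is the kinase, itself made from a stored mRNA, that holds the egg in metaphase arrest. Btg4 is the adaptor that brings CCR4-NOT to maternal mRNAs, Cnot7 and Cnot6l are deadenylase subunits of that complex, Dcp1a is a decapping cofactor, and Zfp36l2 binds AU-rich elements and recruits deadenylases. The mRNAs of many of these factors are themselves maternal and are cleared in turn.

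Levels are deposited intensities on a linear scale, given as mean ± SD over n = 3 arrays, and differences are log2 values with their standard error. A probe set has its own brightness, so levels are compared between groups and not between genes. The median intensity of an array lay between 193.05 and 227.34 for the 18 arrays of the Nanog experiment but between 26.13 and 33.33 for the remaining 24, so levels are compared only inside each of these sets. The number of arrays limits the precision. In embryo RNA of this kind, fewer cells of a type and less RNA per cell cannot be told apart. All 6 preimplantation embryo markers averaged above the array medians in both sets. Of 8 cumulus and granulosa cell markers, 1 (Inhba) did so in the Nanog experiment and 0 on the other arrays. Of 6 sperm markers 3 and 4 did so in these sets, and of 6 blood, vessel and stroma markers 2 and 3. The targeted mRNAs were read first. Pou5f1, which encodes Oct4, averaged 2218 ± 260 with the Oct4 morpholino and 3925 ± 456 with the control morpholino at 44 h. A lower level was not particular to that morpholino. Pou5f1 averaged 2203 ± 712 with the Sall4 morpholino, and 4034 ± 665 with the Nanog morpholino against 6495 ± 376 with its control. At 20 h it averaged 3293 ± 466 with the Oct4 morpholino and 2803 ± 203 in uninjected embryos. Sall4 averaged 3662 ± 462 with its own morpholino, 1585 ± 64.6 with the Oct4 morpholino and 3169 ± 385 with the control at 44 h. Nanog averaged 2687 ± 1129 with its own morpholino and 3828 ± 110 with the control at 44 h. A morpholino need not lower its target's mRNA, so these levels do not check the knockdown.

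**Figure D1:**
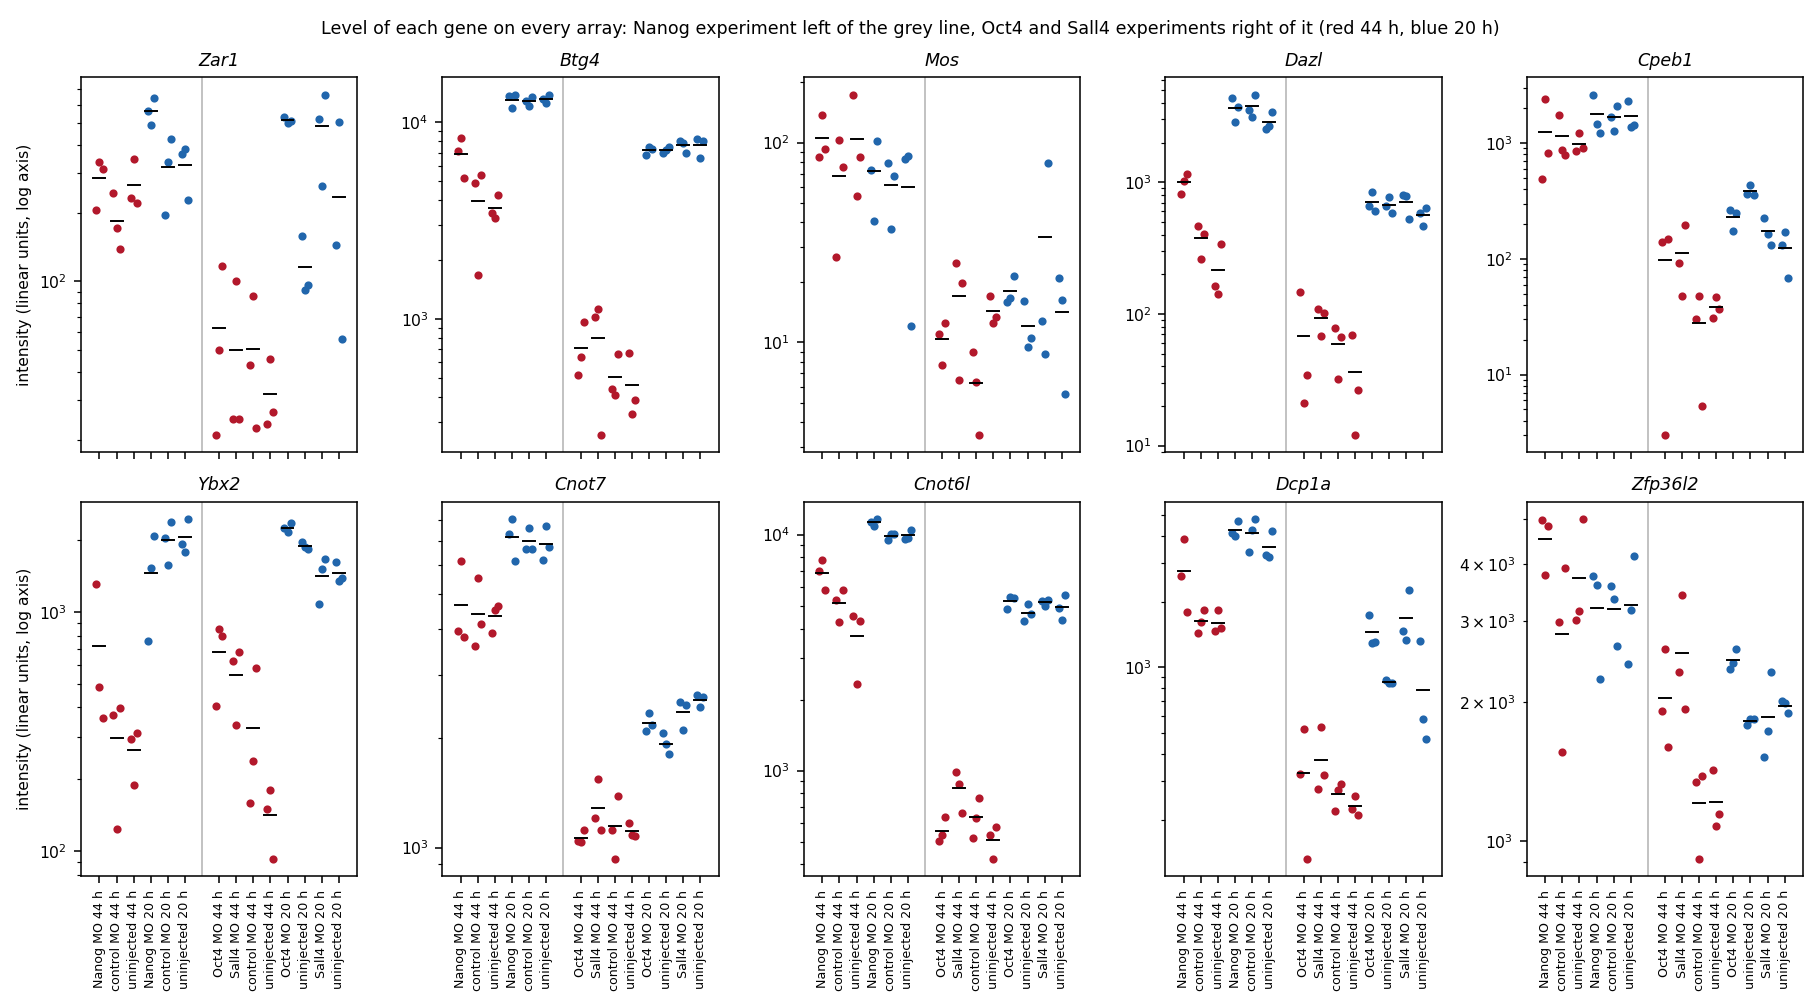
Deposited intensity of each of the 10 genes on every array (log axis, linear intensity units), with 3 points and a bar for the mean per group; red is 44 h and blue 20 h. The Nanog experiment lies left of the grey line and the Oct4 and Sall4 experiments right of it, on another scale. Btg4, Dazl, Ybx2, Cnot7, Cnot6l and Dcp1a sit lower at 44 h than at 20 h in uninjected embryos of both sets, while Mos stays near the floor.

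The deadenylation adaptor, both deadenylase subunits and the decapping cofactor all fell between 20 h and 44 h in uninjected embryos of the Nanog experiment. Together with Dazl and Ybx2, 6 of the 10 genes were lower at 44 h and 0 were higher at an adjusted p under 0.05 (limma, Benjamini-Hochberg over all tested genes). Of all tested genes, 16.3% were lower and 9.28% higher in this comparison. The median log2 change of the 10 genes was -0.94, beside 0.02 over all tested genes.

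Btg4, the CCR4-NOT adaptor, was bright on all 42 arrays. In uninjected embryos its arrays read 3448, 3249 and 4241 at 44 h and 13153, 12439 and 13802 at 20 h. The groups lay far apart, with 27.8% of the 20 h level left at 44 h (log2 -1.85 ± 0.38, limma adjusted p = 0.000347). Cnot6l, a catalytic deadenylase subunit of the Ccr4 type, read 4534, 2320 and 4304 at 44 h and 9577, 9674 and 10498 at 20 h. The second 44 h array lay well below the others, and all 3 were under the lowest 20 h array (log2 -1.47 ± 0.20, limma adjusted p = 1.29e-06). Cnot7, the Caf1-type deadenylase, kept more of its level, with 4348 ± 393 at 44 h and 6880 ± 774 at 20 h (63.2%, limma adjusted p = 0.00647). Dcp1a averaged 1600 ± 193 at 44 h and 3555 ± 552 at 20 h (45.0%, limma adjusted p = 0.0127), and that call was lost without uninjected replicate 3 at 20 h (adjusted p = 0.0603).

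Among the storage and translation factors, Dazl and Ybx2 fell. Dazl, whose arrays in uninjected embryos read 162, 142 and 340 at 44 h, against 2545, 2660 and 3440 at 20 h, was above its own array's median on 1 of the 3 arrays at 44 h. The 44 h mean was 7.45% of the 20 h mean, and the log2 change was -3.74 ± 0.40 (limma adjusted p = 2.46e-08). Ybx2 read 296, 190 and 313 at 44 h and 1935, 1783 and 2466 at 20 h. It was above its own array's median on 2 of the 3 arrays at 44 h, and 12.9% of the 20 h mean was left (log2 -2.89 ± 0.44, limma adjusted p = 8.09e-06). Zar1, at 265.6 ± 68.5 against 325.3 ± 84.3, and Cpeb1, at 991 ± 202 against 1700 ± 526, did not pass the test in these embryos. Their 95% intervals for the log2 change ran from -1.31 to 0.77 for Zar1 and from -1.94 to 0.44 for Cpeb1, so the interval of Cpeb1 takes in a fall as large as that of Btg4. Zfp36l2, the AU-rich element binder, averaged 3730 ± 1111 at 44 h and 3248 ± 864 at 20 h, with overlapping arrays (log2 0.19 ± 0.28, limma adjusted p = 0.679). Mos, the egg arrest kinase, was above the array's own median on 0 of the 18 Nanog arrays and on 1 of the other 24, and its intensities ran from 12.1 to 174.08 and from 3.43 to 78.98. The summed intensity of the 3 markers of the 2-cell stage on the array (Usp17la, Tcstv1 and Tcstv3) was 2616 to 3206 at 44 h and 15768 to 19658.5 at 20 h in these embryos, and its part in the falls was not tested.

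Promoters are shown for Dazl, the gene of the set with the largest fall in uninjected embryos of the Nanog experiment, for the adaptor Btg4 and for Zar1, which was higher with the Oct4 morpholino at 20 h. Each is the 300 bases from 250 before to 50 after a transcription start, 5′ to 3′ on the gene's strand, from RefSeq on GRCm38.p6. Capitals mark the E-box CANNTG, which reads the same on both strands. The windows are chr9:51115751-51116050 (plus strand) for Btg4, chr17:50293571-50293870 (minus strand) for Dazl and chr5:72581035-72581334 (minus strand) for Zar1. Those of Btg4 and Zar1 lie inside the annotated gene spans, chr9:51102147-51119924 and chr5:72577113-72581361, so they show an internal start.
Btg4: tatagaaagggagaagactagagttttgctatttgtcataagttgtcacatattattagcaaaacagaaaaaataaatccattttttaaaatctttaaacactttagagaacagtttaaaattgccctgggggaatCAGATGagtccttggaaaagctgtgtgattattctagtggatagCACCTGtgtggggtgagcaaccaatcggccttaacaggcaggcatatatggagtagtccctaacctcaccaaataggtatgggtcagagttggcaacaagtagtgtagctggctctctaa
Dazl: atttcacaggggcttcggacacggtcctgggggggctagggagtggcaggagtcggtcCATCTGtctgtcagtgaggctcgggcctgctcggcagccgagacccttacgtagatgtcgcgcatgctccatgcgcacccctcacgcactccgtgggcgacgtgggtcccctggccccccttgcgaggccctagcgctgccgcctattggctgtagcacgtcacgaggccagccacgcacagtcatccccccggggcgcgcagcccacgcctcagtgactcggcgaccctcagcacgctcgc
Zar1: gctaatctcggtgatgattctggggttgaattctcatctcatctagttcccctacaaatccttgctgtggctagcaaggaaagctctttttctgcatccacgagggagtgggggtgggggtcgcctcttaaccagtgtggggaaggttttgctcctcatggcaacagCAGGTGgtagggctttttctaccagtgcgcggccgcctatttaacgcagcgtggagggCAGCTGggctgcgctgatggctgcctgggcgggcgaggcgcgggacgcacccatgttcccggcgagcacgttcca
The window of Btg4 held 2 E-boxes and 1 CG dinucleotide, that of Dazl 1 E-box and 28 CG, and that of Zar1 2 E-boxes and 17 CG. RefSeq windows were matched for 7 of the 10 genes, 10 windows in all. Those of Cnot6l overlap in part, and the same CATCTG counts in more than 1 of them, so the windows are not independent. Over these 10 windows, 8 held an E-box, which 72.3% of all 32851 promoter windows did. TATAAA, searched on both strands, was in 1 of the 10 (Cpeb1) and in 13.6% of all. TAATTG and TAATTA, on both strands, were in 0 of the 10 and in 8.0% and 5.29% of all.

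The same 6 genes fell in control-injected embryos of the Nanog experiment, where 16.2% of all tested genes were lower. Dazl averaged 377 ± 107 at 44 h and 3767 ± 783 at 20 h (log2 -3.29 ± 0.40, limma adjusted p = 3.08e-07). Ybx2 averaged 298 ± 151 at 44 h and 2002 ± 400 at 20 h (log2 -2.82 ± 0.44), and Btg4 3978 ± 2015 at 44 h and 12746 ± 634 at 20 h (log2 -1.85 ± 0.38). Cnot6l kept 51.7% of its 20 h level. The call of Cnot7 was lost without control-injected replicate 1 at 44 h (limma adjusted p = 0.0515).

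In Nanog morpholino embryos, 3 of the 10 genes were lower at 44 h than at 20 h, against a background of 11.8% lower among all tested genes. These were Dazl, Cnot7 and Cnot6l. Dazl read 813, 1025 and 1160 at 44 h and 4370, 2844 and 3761 at 20 h, with 27.3% of the level left (log2 -1.85 ± 0.40, limma adjusted p = 0.00111). Btg4 read 7108.5, 8282 and 5210 at 44 h and 13490, 11792 and 13731 at 20 h, a log2 difference of -0.94 ± 0.38 that missed the threshold (limma adjusted p = 0.0760). Ybx2 read 1317, 487 and 360 at 44 h and 760, 1531 and 2084 at 20 h, and its groups overlapped (log2 -1.11 ± 0.44, limma adjusted p = 0.0763). Dcp1a kept 65.0% of its level and Zar1 50.3%, and neither passed in the main fit. Zar1 passed with the arrays of this experiment fitted alone (limma adjusted p = 0.0393). Dcp1a passed with the mean of its probe sets (log2 -1.39, limma adjusted p = 0.000605). In a fit over all probe sets, added after seeing the data, both further probe sets of Dcp1a fell. Their log2 changes were -1.07 and -2.40 (limma adjusted p = 0.0301 and 0.000918). Without Nanog morpholino replicate 3 at 44 h, 1 of the 10 was lower, as Cnot7 and Cnot6l missed (limma adjusted p = 0.0712 and 0.0652). The call of Cnot7 was also lost without Nanog morpholino replicate 2 at 20 h or replicate 1 at 44 h (limma adjusted p = 0.0521 and 0.0558). Ybx2 passed without Nanog morpholino replicate 1 at 20 h or replicate 1 at 44 h (limma adjusted p = 0.0269 and 0.0110).

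Whether the change over time differed between Nanog morpholino and control-injected embryos was tested directly, and limma called 0 of the 10 genes at an adjusted p under 0.05 (0.827% of all tested genes were called). At an unadjusted p under 0.05 there were 2 of 10, both with the smaller fall in Nanog morpholino embryos, where 6.91% of all tested genes had that direction at that level. These were Ybx2, with a log2 difference of 1.71 ± 0.62 (limma adjusted p = 0.244, 95% interval 0.44 to 2.99), and Dazl, with 1.44 ± 0.56 (limma adjusted p = 0.298, 95% interval 0.29 to 2.59). For Btg4 the difference was 0.90 ± 0.53 (limma adjusted p = 0.588).

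**Figure D2:**
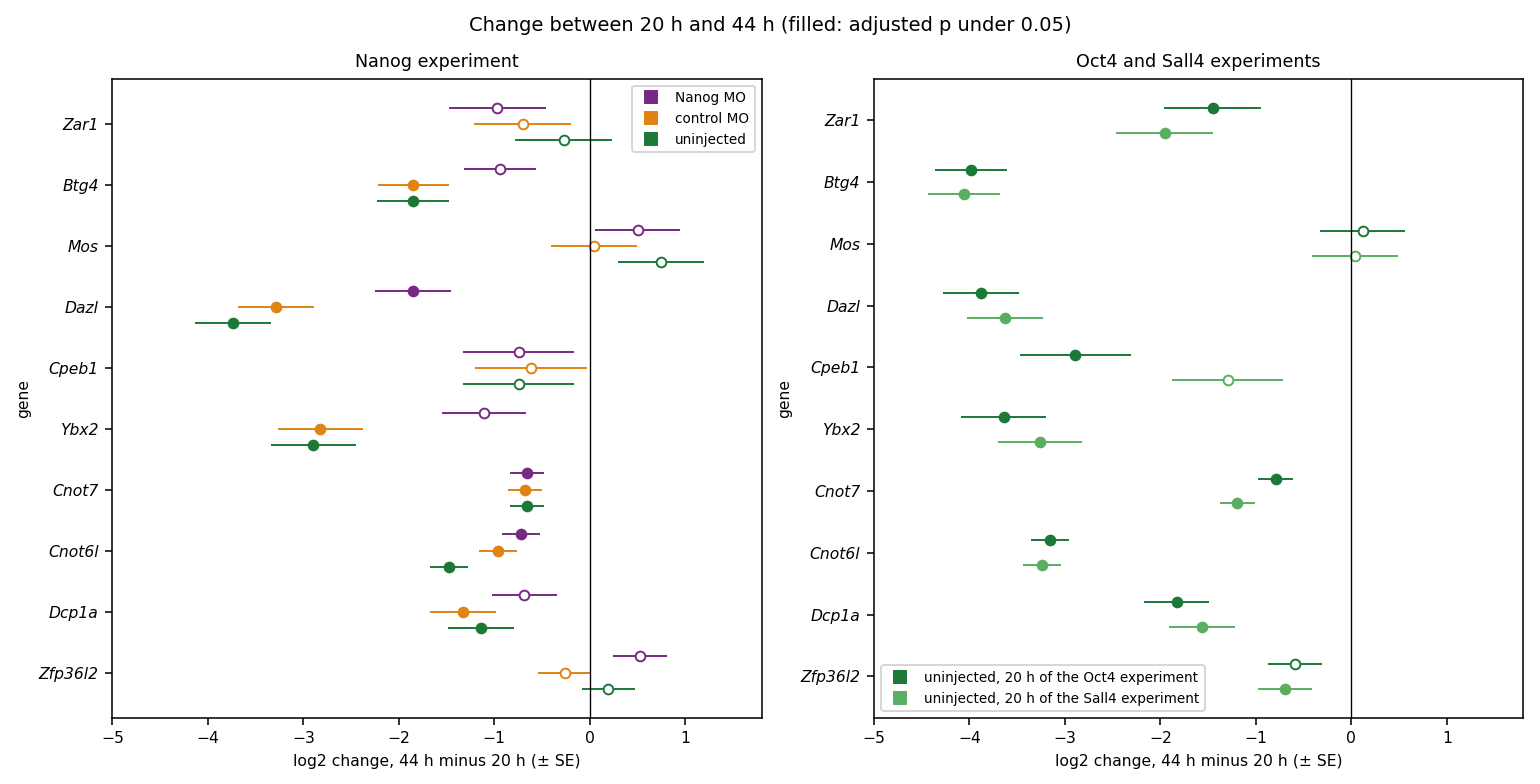
Log2 change from 20 h to 44 h (44 h minus 20 h, ± SE of the limma fit) of each gene; filled points passed at an adjusted p under 0.05. In the Nanog experiment (left), 3 genes passed in Nanog morpholino embryos and the same 6 in control-injected and uninjected embryos. In uninjected embryos of the Oct4 and Sall4 experiments (right), 8 genes passed against each of the 2 sets of 20 h embryos.

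On the arrays of the Oct4 and Sall4 experiments, uninjected embryos at 44 h had lower levels of 8 of the 10 genes than uninjected embryos at 20 h, whichever experiment gave the 20 h arrays. The shares of all tested genes that were lower were 23.6% against the Oct4 experiment and 22.2% against the Sall4 experiment. The 20 h and 44 h arrays are labelled for different experiments, so time and experiment cannot be told apart here. Btg4 averaged 462 ± 185 at 44 h, against 7201 ± 257 in the Oct4 experiment and 7617 ± 881 in the Sall4 experiment at 20 h, so that 6.41% and 6.06% remained. Cnot6l averaged 510.2 ± 80.5 at 44 h, against 4660 ± 414 and 4935 ± 601 at 20 h (log2 -3.16 ± 0.20 and -3.24 ± 0.20). Dazl averaged 35.9 ± 29.8 at 44 h, against 673.4 ± 90.1 and 563.0 ± 89.1 at 20 h. Its 44 h mean was 122.5% of the median intensity of its array set, near the floor. Zar1 was lower in both comparisons, at 31.8 ± 11.8, or 108.75% of that median, against 116 ± 37.3 and 235 ± 238 at 20 h. Against the Oct4 experiment that call was lost without uninjected replicate 1 at 20 h, replicate 1 at 44 h or replicate 3 at 44 h (limma adjusted p = 0.0618 to 0.0945), and against the Sall4 experiment without uninjected replicate 2 at 20 h (limma adjusted p = 0.0527). Ybx2 averaged 141.8 ± 45.2 at 44 h, against 1897 ± 73.1 and 1458 ± 150.2 at 20 h. Dcp1a kept 26.9% and 29.2% of its 20 h level and Cnot7 57.3% and 43.4%. These values depend on the probe set. In a fit over all probe sets, added after seeing the data, 1 of 2 further probe sets of Dcp1a gave log2 changes of -0.70 (limma adjusted p = 0.323) against the Oct4 experiment and 0.22 (limma adjusted p = 0.802) against the Sall4 experiment. Both further probe sets of Cnot7 fell by more, with log2 changes of -2.49 and -2.25 against the Oct4 experiment and -2.61 and -2.38 against the Sall4 experiment, beside -0.79 and -1.19 for the one used here.

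Cpeb1 and Zfp36l2 passed against 1 of the 2 sets of 20 h embryos each, and the difference between the sets was not tested. Cpeb1 read 30.5, 47.15 and 37.1 at 44 h. It read 362, 436 and 355 at 20 h in the Oct4 experiment, and 131, 171 and 67.9 in the Sall4 experiment. The fall passed against the Oct4 experiment (log2 -2.89 ± 0.58, limma adjusted p = 0.000160) and missed against the Sall4 experiment (log2 -1.30 ± 0.58, limma adjusted p = 0.0760), where leaving out uninjected replicate 3 at 20 h gave -1.62 (limma adjusted p = 0.0477). Zfp36l2 averaged 1217 ± 184 at 44 h, against 1824 ± 30.8 in the Oct4 experiment (log2 -0.59 ± 0.28, limma adjusted p = 0.0961) and 1969 ± 62.0 in the Sall4 experiment (log2 -0.70 ± 0.28, limma adjusted p = 0.0456) at 20 h. This last call was lost in 10 of 15 other settings.

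At 20 h, Zar1 was the gene of the set that passed in any of the 3 knockdowns. With the Oct4 morpholino, 1 of the 10 genes was higher (0.174% of all tested genes were) and 0 were lower (1.84% were). With the Sall4 and the Nanog morpholino, limma called 0 of the 10, where 0.233% and 0.62% of all tested genes were called. At an unadjusted p under 0.05 there were 2 of 10 with the Oct4 morpholino, 2 with the Sall4 morpholino and 0 with the Nanog morpholino, against 10.7%, 8.93% and 7.89% of all tested genes. The markers of the 2-cell stage summed to 8817 to 11490 with the Oct4 morpholino and to 8603 to 8908 in its uninjected embryos, and to 10191 to 10586 with the Sall4 morpholino and to 9386 to 9904 in its uninjected embryos. Their part in these differences was not tested.

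Zar1 read 530, 496 and 509 in Oct4 morpholino embryos and 159, 91.8 and 96.7 in uninjected embryos at 20 h. Its groups did not overlap, and its level was 442% of that in uninjected embryos (log2 2.04 ± 0.51, limma adjusted p = 0.0261). The call was lost in 7 of 15 other settings, among them leaving out any 1 uninjected array, Oct4 morpholino replicate 2 or replicate 3 (limma adjusted p = 0.0625 to 0.125). In the Sall4 experiment Zar1 read 520.02, 262 and 665 with the morpholino and 145, 505 and 55.9 in uninjected embryos. There the groups overlapped through uninjected replicate 2 (log2 1.36 ± 0.51, limma adjusted p = 0.336), and without that array the difference was 2.12 (limma adjusted p = 0.0381). In the Nanog experiment Zar1 read 562, 490 and 642 with the Nanog morpholino and 196, 334 and 424 with the control (log2 0.85 ± 0.51, limma adjusted p = 0.809). The Oct4 and Sall4 experiments had no control-injected embryos at 20 h, so injection and knockdown cannot be told apart in them. In the Nanog experiment, on another array set, Zar1 averaged 318 ± 115 with the control morpholino and 325.3 ± 84.3 in uninjected embryos at 20 h. The part of injection in the Oct4 and Sall4 experiments was not tested.

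Dcp1a was the other gene with an unadjusted p under 0.05 in both of these experiments. It read 1728, 1297 and 1307 with the Oct4 morpholino and 878, 845 and 849 in uninjected embryos (log2 0.73 ± 0.34, limma adjusted p = 0.428). In the Sall4 experiment it read 1459, 1336.5 and 2258 with the morpholino and 1323, 577 and 470 in uninjected embryos (log2 1.19 ± 0.34, limma adjusted p = 0.157). No array of uninjected embryos reached the lowest morpholino array in either experiment. Without uninjected replicate 1 the Sall4 difference was 1.63 (limma adjusted p = 0.0153). Btg4 differed by -0.01, 0.00 and 0.03 on the log2 scale with the Oct4, Sall4 and Nanog morpholino at 20 h, each ± 0.38. Dazl differed by 0.06, 0.30 and -0.04, each ± 0.40.

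By 44 h, 1 gene of the set was higher with the Nanog morpholino than with the control (3.44% of all tested genes were) and 1 with the Sall4 morpholino (1.83% were). With the Oct4 morpholino limma called 0 of 10, against 5.38% higher and 6.18% lower among all tested genes. In all 3 knockdowns 0 of the 10 genes were called lower, where 2.13% (Sall4) and 1.56% (Nanog) of all tested genes were. Counts at an unadjusted p under 0.05 were 2 of 10 with the Oct4, 2 with the Sall4 and 5 with the Nanog morpholino, all higher, where 11.5%, 7.19% and 10.6% of all tested genes were higher at that level. The median log2 difference of the 10 genes was 0.20, 0.49 and 0.66 in that order, beside 0.02, -0.02 and 0.05 over all tested genes. The Oct4 and Sall4 comparisons share their control arrays.

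Dazl was the gene that passed with the Nanog morpholino. Its arrays read 813, 1025 and 1160 with the Nanog morpholino and 469, 259 and 402 with the control at 44 h. The groups did not overlap, and the level was 265% of the control (log2 1.39 ± 0.40, limma adjusted p = 0.0359). Leaving out control replicate 2 or 3, or any 1 of the Nanog morpholino arrays, ended the call (limma adjusted p = 0.0623 to 0.192), and so did a pseudocount of 1 (limma adjusted p = 0.132). Dazl was 67.3 ± 69.3 with the Oct4 morpholino and 93.0 ± 22.3 with the Sall4 morpholino, against 59.2 ± 24.2 with their control. Between the Oct4 and Nanog knockdowns the effects on Dazl differed by -1.502 ± 0.56 on the log2 scale, which did not pass (limma adjusted p = 0.172), and this became -2.14 (adjusted p = 0.0159) without Oct4 morpholino replicate 1. The other Oct4 morpholino arrays then read 20.9 and 34.2, where array medians were 26.13 to 33.33, and the scales of the array sets differ. The Sall4 and Nanog effects on Dazl differed by -0.82 ± 0.56 (limma adjusted p = 0.625).

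There were 4 other genes that had an unadjusted p under 0.05 with the Nanog morpholino at 44 h, and none of these 4 passed adjustment. Ybx2 read 1317, 487 and 360 with the Nanog morpholino and 371, 124 and 397 with the control (log2 1.16 ± 0.44, limma adjusted p = 0.137). Btg4 averaged 6867 ± 1550 with the Nanog morpholino and 3978 ± 2015 with the control (log2 0.93 ± 0.38, limma adjusted p = 0.170). Zfp36l2 averaged 4530 ± 650 and 2820 ± 1185 in the same order (log2 0.77 ± 0.28, limma adjusted p = 0.118), and without control replicate 3 the difference was 1.05 (limma adjusted p = 0.0383). Cnot6l read 7031, 7828 and 5838 with the Nanog morpholino and 5281, 4264 and 5811 with the control, just without overlap (log2 0.43 ± 0.20, limma adjusted p = 0.255). Markers of the 2-cell stage overlapped between these groups. Their summed intensity was 3807 to 10517 with the Nanog morpholino and 1719 to 5023 with the control at 44 h, and this difference was not tested. The 6 preimplantation embryo markers, Pou5f1 and Sall4 among them, summed to 33329 to 38738 with the Nanog morpholino and to 42940 to 44379 with the control. The part of these markers in the results was not tested.

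Zfp36l2 passed with the Sall4 morpholino at 44 h. It read 2334, 3422 and 1937 with the Sall4 morpholino and 1342, 913 and 1384 with the control. All 3 morpholino arrays were above the highest control array, at 211% of the control level (log2 1.05 ± 0.28, limma adjusted p = 0.0266). Without Sall4 morpholino replicate 2 or control replicate 2 the call was lost (limma adjusted p = 0.211 and 0.167), as it was with the arrays of these experiments fitted alone (limma adjusted p = 0.119). With the Oct4 morpholino Zfp36l2 read 1921, 2610 and 1598, again above all of the same control arrays, and missed the threshold (log2 0.74 ± 0.28, limma adjusted p = 0.0861), which it passed with quantile normalization or with the mean of its probe sets (limma adjusted p = 0.0485 and 0.0466). The log2 differences of Zfp36l2 with the Oct4, Sall4 and Nanog morpholino were thus 0.74, 1.05 and 0.77, and the Sall4 and Nanog effects differed by 0.28 ± 0.40 (limma adjusted p = 0.872).

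Ybx2 read 405, 853 and 797 with the Oct4 morpholino and 626, 338 and 683 with the Sall4 morpholino at 44 h, against 159, 239 and 584 with the control. The log2 differences were 1.16 ± 0.44 (limma adjusted p = 0.0891) and 0.86 ± 0.44 (limma adjusted p = 0.342). Control replicate 3 lay far above the other controls, and without it the Oct4 difference was 1.66 (limma adjusted p = 0.0206). Without Oct4 morpholino replicate 1 it was 1.49 (limma adjusted p = 0.0465). Cpeb1 read 92.5, 48.22 and 196 with the Sall4 morpholino and 29.99, 48.19 and 5.35 with the control, which left the groups just apart (log2 1.52 ± 0.58, limma adjusted p = 0.155). With the Oct4 morpholino Cpeb1 read 140.7, 2.99 and 147.9 (log2 0.98 ± 0.58, limma adjusted p = 0.326), and without the low array, replicate 2, the difference was 2.01 (limma adjusted p = 0.0100). The control mean of Cpeb1, 27.8 ± 21.5, was 95.1% of the median intensity of its array set, so these differences are taken from a control near the floor. Btg4 averaged 709 ± 231 with the Oct4 and 798 ± 472 with the Sall4 morpholino, against 504 ± 136.5 with the control. Without Sall4 morpholino replicate 3 the Sall4 difference of Btg4 was 1.09 (limma adjusted p = 0.0477), beside 0.42 with all arrays. The sum of the 3 markers of the 2-cell stage was 2858 to 4237 with the Oct4 morpholino and 1571 to 4761 with the Sall4 morpholino, against 860 to 1256 with the control. The preimplantation embryo markers, which include Pou5f1 and Sall4, summed to 18337.5 to 19610 and 17533 to 22001.5, against 21214 to 24159 with the control. As above, the part of these markers in the results was not tested.

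Setting the Oct4 against the Sall4 morpholino at 44 h, limma called 0 of the 10 genes (7.07% of all tested genes were called). At an unadjusted p under 0.05, where 19.7% of all tested genes were, there was 1, Cnot6l, which read 502, 531 and 637 with the Oct4 morpholino and 987, 881 and 662 with the Sall4 morpholino (log2 -0.57 ± 0.20, limma adjusted p = 0.0786). Its groups did not overlap, and without Sall4 morpholino replicate 3 the difference was -0.73 (limma adjusted p = 0.0353). Dazl differed by -1.32 (limma adjusted p = 0.0280) without Oct4 morpholino replicate 1, beside -0.68 with all arrays.

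**Figure D3:**
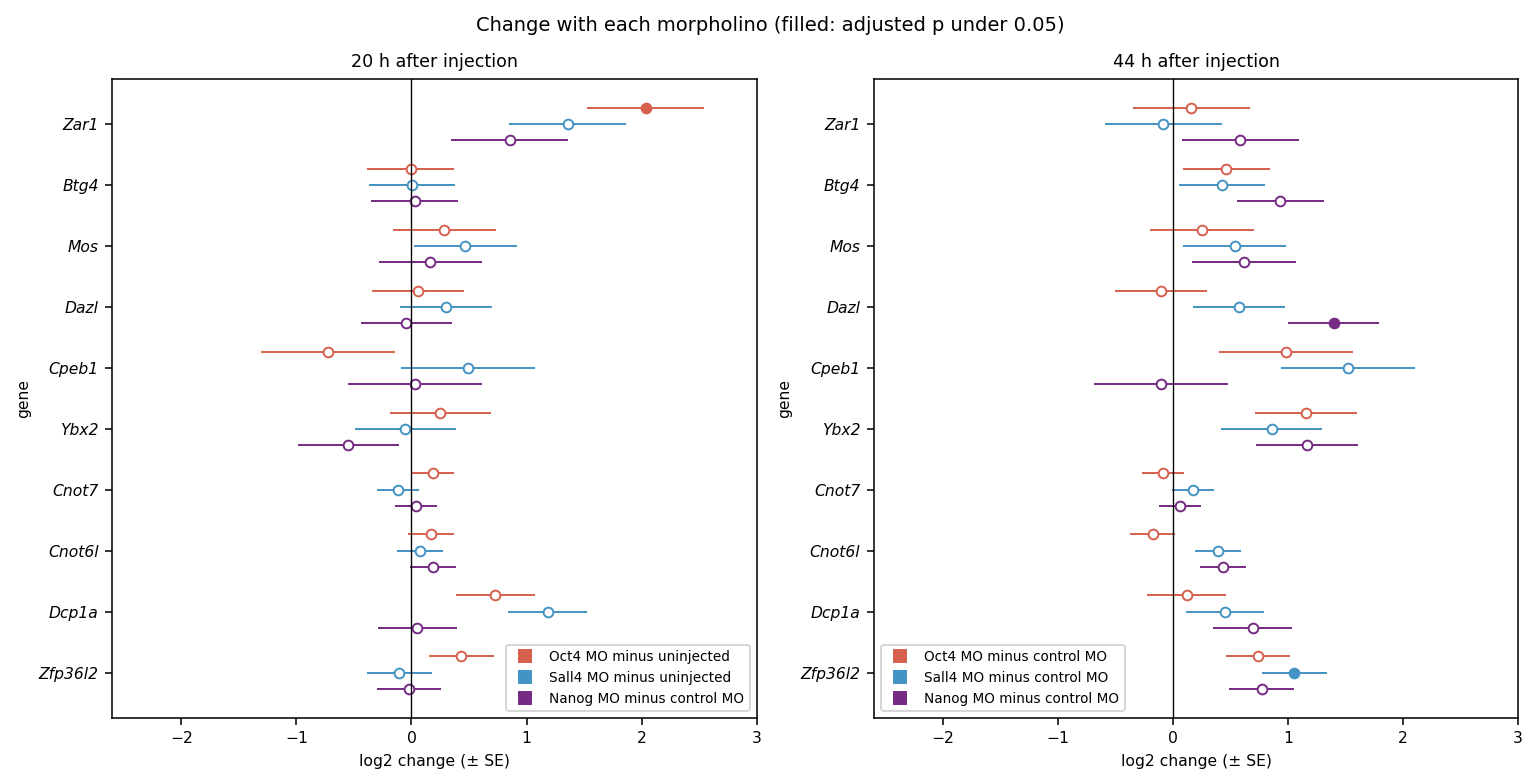
Log2 difference (± SE of the limma fit) of each gene with each morpholino at 20 h (left, against uninjected embryos for Oct4 and Sall4 and against the control morpholino for Nanog) and at 44 h (right, against the control morpholino); filled points passed at an adjusted p under 0.05. The points that passed are Zar1 at 20 h (Oct4, 2.04), and Dazl (Nanog, 1.39) and Zfp36l2 (Sall4, 1.05) at 44 h.

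Between control-injected and uninjected embryos limma called 0 of the 10 genes in each of 3 comparisons (0.0905%, 0.349% and 0.0969% of all tested genes were called at 20 h and 44 h in the Nanog experiment and at 44 h in the others). At an unadjusted p under 0.05 the counts were 0, 2 and 1 of 10, against 5.82%, 10.4% and 5.52% of all tested genes. The 2 in the Nanog experiment at 44 h were Dazl, at 377 ± 107 with the control morpholino and 215 ± 109 in uninjected embryos (log2 0.83 ± 0.40, limma adjusted p = 0.463), and Cnot6l, at 5119 ± 786 and 3720 ± 1217 in that order (log2 0.51 ± 0.20, limma adjusted p = 0.309). Ybx2 was the 1 in the other experiments, at 327 ± 226 with the control morpholino and 141.8 ± 45.2 in uninjected embryos (log2 0.97 ± 0.44, limma adjusted p = 0.837).

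The wider machinery of mRNA storage and decay, taken from 6 lists of 93 genes of which 80 were on the array, moved in both directions over time. In uninjected embryos of the Nanog experiment 1 of 19 tested deadenylation genes rose and 5 fell, 2 of 13 decapping genes rose and 4 fell, and 3 of 19 storage and polyadenylation genes rose and 3 fell. Among the uridylation and m6A genes 2 of 9 rose and 1 fell. In the Mos pathway and egg arrest list 2 of 11 rose and 2 fell, and of 8 AU-rich element binders 1 fell. Of all tested genes, 9.28% rose and 16.3% fell. List medians of the log2 change lay between -0.12 and 0.11.

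Dcp2, the decapping enzyme that Dcp1a activates, averaged 413 ± 245 at 44 h and 5560 ± 636 at 20 h (log2 -3.86 ± 0.41, limma adjusted p = 2.09e-08). Edc3, an enhancer of decapping, rose (log2 2.89 ± 0.57), while Lsm14b, an RNA-binding partner of the helicase Ddx6, fell (log2 -1.97 ± 0.34), as did Eif4enif1, which binds the cap-binding protein and represses translation (log2 -1.25 ± 0.30). Tob1 and Tob2, relatives of Btg4 that also bind the Cnot7 subunit, fell, with log2 changes of -2.37 and -2.22. Pan2, of the other cytoplasmic deadenylase, fell by 1.40, and Cnot11, a structural subunit of CCR4-NOT, rose by 1.15. Elavl2, an RNA-binding protein of oocytes, fell by 2.47, and Wee2, the oocyte kinase that holds Cdk1 inactive, fell by 4.14.

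The close relatives of the 10 genes named here did not follow them uniformly. Cpeb2 rose to 4928 ± 489 at 44 h, against 363 ± 293 at 20 h (log2 3.97 ± 0.47, limma adjusted p = 1.30e-07), while Cpeb4 fell to 1367 ± 589, against 4507 ± 1045 (log2 -1.77 ± 0.41, limma adjusted p = 0.00152). Cnot6, the paralog of Cnot6l, fell (log2 -0.91 ± 0.25, limma adjusted p = 0.00650), and Cnot8, the paralog of Cnot7, differed by -0.10 ± 0.20 (limma adjusted p = 0.781). Ybx1, the widely expressed Y-box protein, differed by 0.07 ± 0.13 (limma adjusted p = 0.768). Other list genes, not relatives of the 10, also moved in both directions. Tent5b, a member of a family of poly(A) polymerases, fell to 302 ± 170 at 44 h, against 3133 ± 790 at 20 h. Cpsf3, the endonuclease of cleavage and polyadenylation, rose (log2 1.78 ± 0.39). Dis3l2, an exonuclease of uridylated RNA, rose by 2.01 on the log2 scale.

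**Figure D4:**
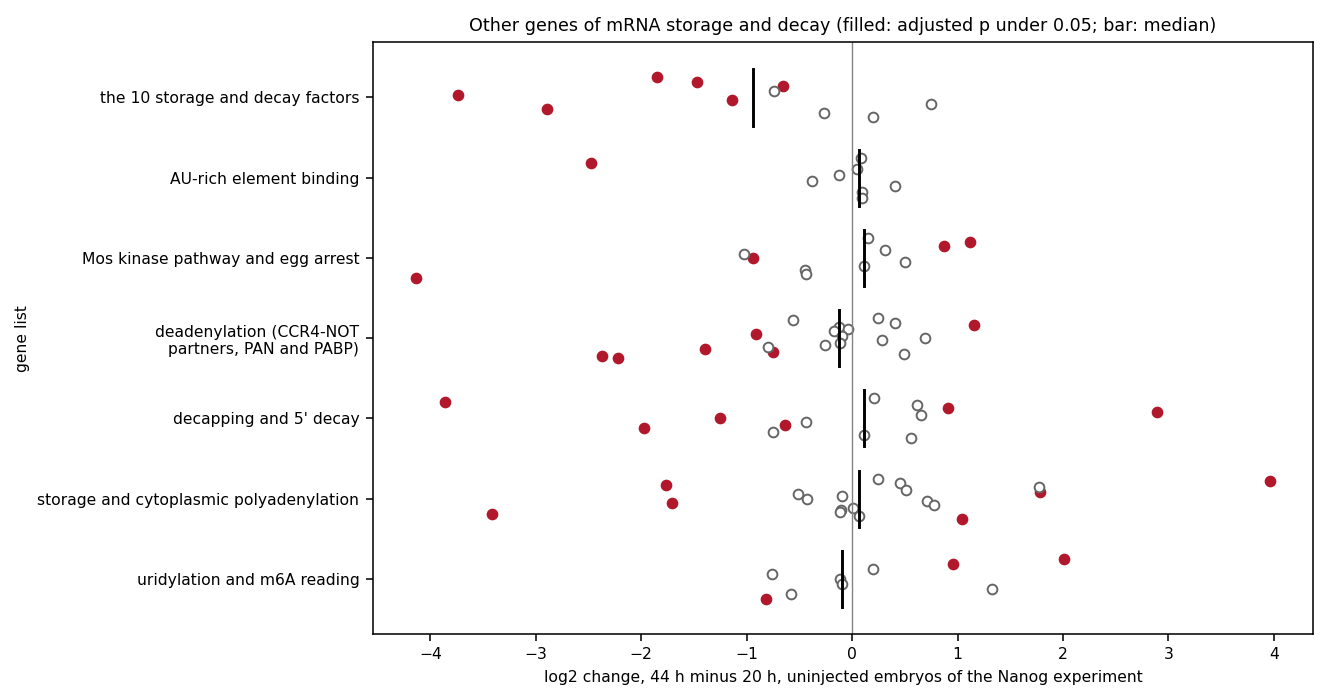
Log2 change from 20 h to 44 h in uninjected embryos of the Nanog experiment for the 10 factors and for each tested gene of the 6 lists; red points passed at an adjusted p under 0.05 and black bars are medians. The median of the 10 factors is -0.94, and the list medians lie between -0.12 and 0.11 with calls on both sides of 0 in 5 of the 6 lists.

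With the knockdowns at 44 h, 4 of the 80 list genes on the array passed with the Nanog morpholino. Tob2 (log2 1.45 ± 0.31), Dcp2 (1.38 ± 0.41) and Tent5b (1.72 ± 0.50) were higher and Dis3l2 was lower (-1.26 ± 0.27). Of all tested genes 3.44% were higher and 1.56% lower, so these counts lie near the background. Tob2, Dcp2 and Tent5b are 3 of the genes that had fallen over time, and Dis3l2 had risen. How many of all tested genes changed in opposite directions in this way was not counted. With the Oct4 morpholino 6 list genes were higher and 9 lower, where 5.38% and 6.18% of all tested genes were. Higher ones included Zfp36l1, a relative of Zfp36l2 (log2 1.77 ± 0.52), Btg2 (1.62 ± 0.40), Tob2 (1.45 ± 0.31) and Elavl2 (1.41 ± 0.30). Lower ones included Igf2bp1, a stabiliser of bound mRNAs (log2 -2.52 ± 0.53), Larp1, which binds mRNAs of the translation machinery (-1.68 ± 0.34), Mettl14, of the m6A methyltransferase (-1.49 ± 0.32), and Cnot9 (-1.28 ± 0.30). With the Sall4 morpholino Igf2bp3 (log2 1.45 ± 0.30) and Elavl2 (1.19 ± 0.30) were higher, where 1.83% of all tested genes were. At 20 h 1 of the 80 list genes on the array passed in the knockdowns. It was Larp1, at 338 ± 242 with the Oct4 morpholino and 812.1 ± 83.6 in uninjected embryos (log2 -1.49 ± 0.34, limma adjusted p = 0.0139). Of all tested genes 1.84% were lower in that comparison.

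Over the means of the 14 groups, with the mean of each array set removed, Btg4 and Cnot6l had the most similar profiles of the set (Pearson r = 0.988). Btg4 with Cnot7 gave r = 0.955 and Dazl with Ybx2 r = 0.943, while the values of Zfp36l2 with the other 9 genes ran from 0.269 to 0.565. These are descriptions over 14 points that share arrays and mostly the step from 20 h to 44 h. Among all 15478 tested genes, the profiles most like Btg4 were Zbed3 (r = 0.997) and C86187 (r = 0.997), those most like Dazl were Jade2 (0.993) and Per3 (0.993), and those most like Cnot6l were Rnf146 (0.995) and Fbxo11 (0.992). Zar1 was most like D10Wsu102e (0.949) and Paip2b (0.949), Ybx2 most like Rnf170 (0.987) and Sh2d3c (0.982), and Dcp1a most like Cenpo (0.981) and Gpr180 (0.980). For Cnot7 these were Ccp110 (0.986) and Pramel34 (0.986), and for Cpeb1 Rala (0.958) and Rcbtb1 (0.948). The nearest profiles of Zfp36l2 (Vash2, 0.864, and Maats1, 0.861) and of the dim Mos (Cd300a, 0.850, and Adam28, 0.792) were less alike.

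Of the 10 genes, 5 have several probe sets, and these did not always give the same call. Each was also tested on its own, in a fit over all probe sets chosen after seeing the data. In uninjected embryos over time in the Nanog experiment, all 4 probe sets of Cnot6l fell, with log2 changes of -2.61 to -1.47, and both of Dazl fell, with -3.74 and -2.91. For Cnot7 and Dcp1a 1 of 3 probe sets each missed there, with log2 changes of -0.64 (limma adjusted p = 0.115) and -1.16 (limma adjusted p = 0.0971). That probe set of Cnot7 also missed in control-injected and Nanog morpholino embryos (limma adjusted p = 0.104 and 0.201). On the other arrays against the Oct4 experiment, 2 further probe sets of Cnot7 fell more than the one used here. That with -2.49 was also lower with the Oct4 morpholino than with the control at 44 h (log2 -0.77, limma adjusted p = 0.0350). It was lower with the Oct4 than with the Sall4 morpholino at 44 h too (log2 -0.80, limma adjusted p = 0.0383). A further probe set of Cnot6l was higher with the Nanog morpholino at 44 h (log2 1.86, limma adjusted p = 0.0236). For Zfp36l2, a second probe set rose over time in Nanog morpholino embryos (log2 1.79, limma adjusted p = 0.00238). The last of its 3 probe sets had a median of 13.2 on the 24 arrays and of 1581 on the Nanog arrays, and it was above its own array's median on 1 of the 24. With the Sall4 morpholino at 44 h these 2 gave log2 differences of 1.21 and 0.23 (limma adjusted p = 0.120 and 0.776). The second Dazl probe set gave 1.502 with the Nanog morpholino at 44 h (limma adjusted p = 0.224).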

How the data were processed

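The authors deposited 1 normalized intensity per probe set and array, on a linear scale. The sources used here do not name their normalization. Per the labels' protocols, PicoPure RNA was amplified with WT-Ovation One-Direct, and arrays are numbered as biological replicates. The p-values rest on the spread between arrays within groups, estimated for each gene over all 14 groups together. They do not rest on the spread of the compared groups alone. GEO's platform annotation names 1 gene for 34945 of 45101 probe sets, several for 932 and none for 9160, and 64 are controls. From the deposited values, log2(intensity + 16) was fitted with limma 3.58.1 (R 4.3.3), 1 mean for each of 14 groups over 42 arrays, with 28 residual degrees of freedom. Each gene had its brightest probe set. Genes with a group mean above intensity 71.15 were tested (15478 of 18193), in 18 two-sided comparisons, with Benjamini-Hochberg adjustment over all tested genes. An exact permutation test of 3 against 3 arrays cannot go below p = 0.1. The fit was tested on simulated data. The 10 genes, the 6 lists and the markers were chosen with earlier results of these data known. All 10 genes are named. Of each list, up to 4 called genes with the largest change, and relatives of the 10, are named. Alternatives changed the pseudocount, filter, scaling, choice of probe set, block, arrays fitted together and arrays left out.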

Additional observations from a re-analysis of the deposited data

How the results depend on the processing

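Each count of the 10 genes was recomputed with pseudocounts of 1 and 64, no filter on dim genes, a filter for each array set, median centring, quantile normalization, the mean of a gene's probe sets, a replicate block, the arrays of the experiments compared alone, and each array left out. The count over time in Nanog morpholino embryos, 3, became 5 with a pseudocount of 64, 5 with the mean of probe sets (1 of them higher) and 4 with the experiments alone. Against the Oct4 experiment a pseudocount of 64 gave 7 in place of 8. Against the Sall4 experiment no filter, quantile normalization, the mean of probe sets and the experiments alone each gave 7 in place of 8. With a pseudocount of 1 the count became 0 for the Oct4 morpholino at 20 h and 0 for the Nanog morpholino at 44 h, against 1 each, and with the experiments alone 0 for the Oct4 morpholino at 20 h and 0 for the Sall4 morpholino at 44 h. With quantile normalization 1 was called with the Oct4 morpholino at 44 h and 1 between the Oct4 and Sall4 morpholinos, and with the mean of probe sets 1 with the Oct4 and 2 with the Nanog morpholino at 44 h. Leaving out 1 array gave 1 to 4 over time in Nanog morpholino embryos and 5 to 6 in control-injected and uninjected embryos. On the other arrays it gave 7 to 8 against the Oct4 and 6 to 8 against the Sall4 experiment. At 20 h it gave 0 to 1 for the Oct4 and 0 to 1 for the Sall4 morpholino. At 44 h it gave 0 to 1 for the Oct4, 0 to 2 for the Sall4 and 0 to 1 for the Nanog morpholino, 0 to 1 between the Oct4 and Sall4 morpholinos, and 0 to 1 for the difference of Oct4 and Nanog effects. The other counts stayed at 0. Deviations of same-numbered arrays correlated at -0.0454 to 0.137. In the Nanog experiment at 20 h 4 of 9 such pairs were over 0.1, where differently numbered pairs reached 0.0481. At 44 h 1 of 9 was, where differently numbered pairs reached 0.0313. Over all sets 5 of 42 were, and 0 outside the Nanog experiment. Pairing in the Nanog experiment is thus not settled, and the numbers were not used to pair arrays in the main fit. The replicate block gave 7 in place of 8 in the time comparison with the Sall4 experiment and moved no other count. A further probe set of Dcp1a, tested after seeing the data, turned its change in that comparison to 0.22 (limma adjusted p = 0.802), beside -1.57, and the cause was not tested. Of 2862 single-gene values recomputed with the planned settings, 37 lost and 22 gained a call and 0 reversed. Most of these values had no call to lose. The knockdown calls were less stable. Those of Zar1 (Oct4 morpholino, 20 h), Dazl (Nanog, 44 h) and Zfp36l2 (Sall4, 44 h) held in 8, 9 and 12 of 15 other settings. Another background correction and a slide block were not run, since scanner files were not used here.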
